A study of Rattus norvegicus with 3 samples.

Results

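The comparison described here sets the reperfused rat kidney under heparin against the same preparation under saline. Each side is 1 microarray, and each array holds pooled RNA of 3 kidneys. A gene entered the comparison when a probe set (the group of short probes that reads 1 transcript) carried 1 gene symbol. Where a gene had several such probe sets, the one with the highest mean over the study's 3 arrays stood for it, and its value had to reach the array's median on control as well as heparin. In all, 9236 of the 14218 genes that the array reads under 1 symbol passed. All values are log2 expression, all differences are heparin minus control on that scale, and a difference of 1 is a 2-fold difference.

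Donor kidneys came from male Wistar rats of 370 to 508 g to model donation after circulatory arrest. According to the labels, they lay in warm ischaemia for 20 min, were kept cold in University of Wisconsin solution for 17 ± 0.7 h, and were then reperfused by a recipient rat for 5 h 43 min ± 21 min. Recipients of the control group were given saline at 1 ml/h, those of the heparin group heparin at 100 U/ml/h, and those of a further group a peptide named peptide 2 at 0.5 mg/ml. There were 7 recipients per group, and the 3 kidneys with the best RNA were pooled. Warm ischaemia, cold storage and reperfusion were shared by all groups. The pool of selected kidneys limits each group as a model, because it gives no value for a single animal. With 1 array per group no difference has a replicate check, so no test, p-value or standard error is given, and sizes and counts are a description of these arrays. Heparin and peptide were compared with the same control array, so the peptide values printed beside heparin are not separate evidence.

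Interferons are secreted proteins that act through cell-surface receptors, Janus kinases and STAT proteins. STAT and IRF factors then bind short DNA elements and switch on genes that sense foreign nucleic acid, block viral replication and present peptides to T cells. Reperfusion of a stored kidney also engages stress programmes of the tubule: the unfolded protein response of the endoplasmic reticulum, the Nrf2 response to oxidants, and the immediate early transcription factors. Heparin is a highly sulfated glycosaminoglycan known as an anticoagulant, and it binds many chemokines and growth factors that otherwise sit on heparan sulfate of the cell surface.

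Genes of the 11 interferon lists were 147 of the 9236 measured genes. They made up 28 of the 98 genes at least 2-fold higher under heparin and 2 of the 69 genes lower by as much. In any 1 list, at most 7 genes were higher by 2-fold and at most 3 lower. The lists were chosen with earlier results of these data known. A difference of at least 2-fold upward was found for 98 of the 9236 genes (1.06%) and downward for 69 (0.747%). At 1.5-fold, 281 (3.04%) were higher and 311 (3.37%) lower. On the deposited scale small differences leaned downward: 25.8% of genes were higher by any amount, 44.2% lower, and 30.1% had exactly the same value on both arrays. Most differences were small, with an SD of 0.32 across genes. The direction of the balance at 1.5-fold depended on the scaling, with 328 higher and 257 lower after quantile normalization. The lean by any amount depended on it too, since the median over all genes went from 0.00 to 0.03. Counts of genes lower by any amount in the lists below hold for the deposited scale only.

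Transcripts that define kidney tissue were high on both arrays. Umod, the uromodulin of the thick ascending limb, read 14.85 in control and 15.02 in heparin. Slc34a1, the sodium-phosphate carrier of the proximal tubule, read 14.09 on both, and Lrp2, its endocytic receptor megalin, 12.02 and 12.10. Slc12a1, the salt carrier of the thick ascending limb, read 12.52 and 12.41, and Aqp2, the water channel of the collecting duct, 11.41 and 11.67. Markers of other cell types bear on several results below. In a pool of whole-kidney RNA, fewer cells of a type and less RNA per cell cannot be told apart.

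**Figure D1:**
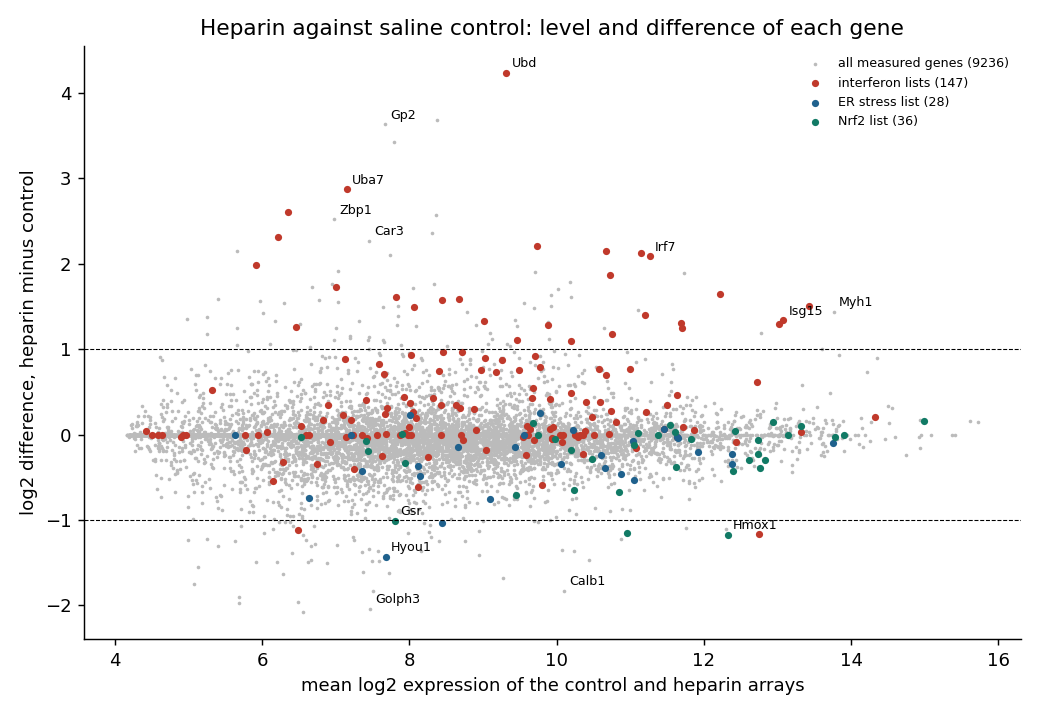
Each point is 1 of the 9236 measured genes, with the mean log2 expression of the control and heparin arrays on the horizontal axis and the log2 difference, heparin minus control, on the vertical axis. Dashed lines mark 2-fold. Red points, the 147 genes of the interferon lists, include 28 of the 98 genes at least 2-fold higher, while genes of the endoplasmic reticulum stress and Nrf2 lists lie at or below 0.25.

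The promoters of the genes that were higher held the letters of the interferon-stimulated response element more often than other promoters did. This element is the site that IRF factors bind, and it was searched as GAAA, any 2 bases and GAAA again on both strands of the 250 bases before each start site. RefSeq promoter sequences of the GRCr8 build matched 7743 of the 9236 genes by gene ID. Of the 80 genes at least 2-fold higher with a promoter, 25 (31.2%) held the motif, against 208 (2.69%) of all 7743 and 902 (3.29%) of all 27457 promoters of that length in the table. Among the 55 genes at least 2-fold lower it was found in 2 (3.64%). Of the 208 genes with the motif, those 25 were past 2-fold upward and most were not. The windows below belong to genes of different roles and show where the match lies. They run 5′ to 3′ on the gene's strand, with the matched letters in capitals.

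Irf7, chr1:205800048-205800127 (- strand): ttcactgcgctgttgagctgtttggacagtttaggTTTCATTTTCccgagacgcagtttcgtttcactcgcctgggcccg
Gbp4, chr2:233978441-233978485 (+ strand): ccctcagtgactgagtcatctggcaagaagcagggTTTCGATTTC
Oas1a, chr12:41330390-41330465 (+ strand): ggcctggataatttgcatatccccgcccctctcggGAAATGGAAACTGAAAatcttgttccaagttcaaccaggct
Parp12, chr4:68850542-68850594 (- strand): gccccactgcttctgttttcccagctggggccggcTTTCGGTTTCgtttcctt
Ddx60, chr16:33208840-33208947 (- strand): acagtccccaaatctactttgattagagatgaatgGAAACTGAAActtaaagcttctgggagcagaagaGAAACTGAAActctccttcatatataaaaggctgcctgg
Sp110, chr9:93670673-93670752 (- strand): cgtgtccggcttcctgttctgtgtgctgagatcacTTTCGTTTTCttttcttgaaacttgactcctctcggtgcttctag
Tap1, chr20:4668620-4668699 (- strand): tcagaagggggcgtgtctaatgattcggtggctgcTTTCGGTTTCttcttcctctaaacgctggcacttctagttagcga
Casp1, chr8:10872767-10872829 (+ strand): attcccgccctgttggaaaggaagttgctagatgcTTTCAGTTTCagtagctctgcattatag

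The window of Oas1a held 2 overlapping matches and that of Ddx60 2 separate ones. In Irf7, Gbp4, Parp12, Sp110, Tap1 and Casp1 the match lay on the opposite strand, so its reverse complement stands in capitals. In Gbp4 the match ended at the last base before the start site, and in Tap1 it ended 112 bases before it. The AP-1 site, searched as TGANTCA, was present in 16 of the 80 higher genes (20.0%), in 5 of the 55 lower genes (9.09%) and in 4.43% of all. The antioxidant response element, searched as TGACNNNGC, was about as common in each set, at 13.8%, 10.9% and 12.7%. The letters of the interferon-stimulated response element conflict with those of either motif at every possible overlap. That 0 of the 7743 promoters held overlapping matches was thus fixed by the letters and says nothing about these promoters. A match is a stretch of letters and not a measured binding site, and a promoter without one lacks only these letters in this window.

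**Figure D2:**
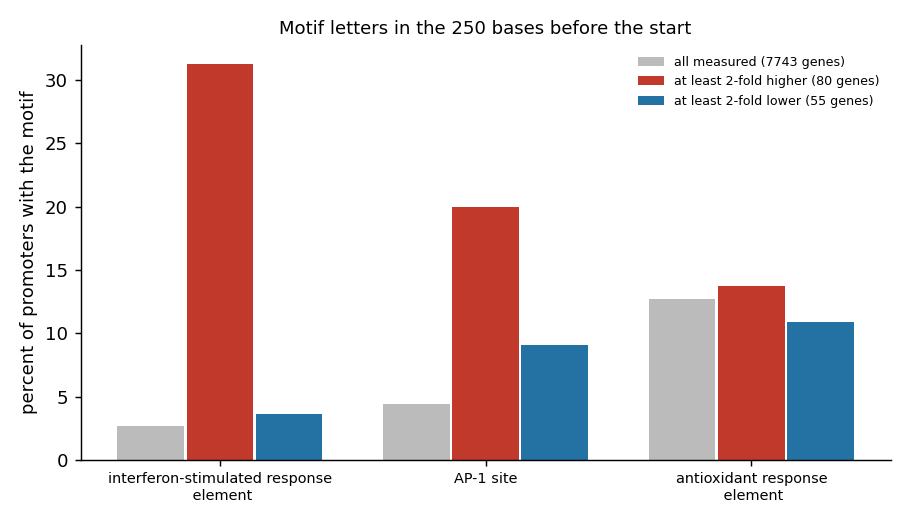
Bars give the percent of promoters (250 bases before the start) that hold each motif, for all 7743 measured genes with a promoter, the 80 genes at least 2-fold higher in heparin and the 55 at least 2-fold lower. The interferon-stimulated response element stands at 31.2% in the higher genes against 2.69% in all, while the antioxidant response element differs little between the sets.

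Genes of the interferon system are given by role, from its receptors to its effectors. The 11 interferon lists held 147 measured genes, with 28 at least 2-fold higher, 2 at least 2-fold lower and a median difference of 0.17, against a median of 0.00 over all genes. At 1.5-fold 46 were higher and 4 lower, against 3.04% and 3.37% of all genes. Among the receptors and kinases, 0 of 15 measured genes passed 1.5-fold upward, 1 passed it downward, and the median was 0.04. Ifngr1, the ligand-binding chain of the interferon gamma receptor, differed by 0.43, the kinases Jak1 by 0.28 and Jak2 by 0.20. The lower one was Ifnar1, a chain of the type I interferon receptor, with 7.05 in control, 5.93 in heparin and 6.30 in peptide. That value rests on 1 of 4 measured probe sets, since the other 3 differed by -0.04, -0.01 and 0.00.

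Among the transcription factors, 2 of 15 were at least 2-fold higher, and the median was 0.06. Stat2, which joins the complex that binds the interferon-stimulated response element, read 8.92 in control, 10.02 in heparin and 9.83 in peptide, 2.15-fold higher under heparin. Irf7, the IRF factor that amplifies type I interferon, read 10.22, 12.31 and 11.90. Irf8, a factor of myeloid cells, differed by 0.71 and Irf1, the factor of the interferon gamma response, by 0.55. Irf2 was at 0.35. Of the 15 entries of this list 8 were higher, 3 lower and 4 identical. The 1 entry at least 1.5-fold lower was Irf2bp2, at -0.60, a corepressor and not itself an IRF or STAT factor.

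The list of cytosolic nucleic acid sensors and inflammasome genes had a median of 0.85, with 7 of 21 measured genes higher by 2-fold or more, 14 at least 1.5-fold higher and 0 lower by that much. Dhx58, which encodes the RNA-binding helicase LGP2, read 8.27 in control, 9.55 in heparin and 9.57 in peptide. Its 3 probe sets differed by 0.90, 1.28 and 1.61. Ifih1, the long double-stranded RNA sensor MDA5, read 7.56, 8.49 and 8.53, and Eif2ak2, the kinase PKR, differed by 0.69. Adar, which edits adenosine in double-stranded RNA, read 7.36, 8.41 and 8.10 on its brightest probe set, with 0.18 and 0.59 on the others. Both RNA sensors were thus higher on each treated array than in control, by similar amounts in heparin and peptide.

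Antiviral effectors that act on RNA formed the next group. Enzymes among the oligoadenylate synthetases make the messenger of RNase L. All 3 measured genes of that list were at least 1.5-fold higher. Oas1b read 7.01 in control and 8.63 in heparin, Oas1a 8.36 and 9.68, and the synthetase-like gene Oasl differed by 0.61. Schlafen proteins, linked to growth control of leukocytes and to viral restriction, had a median of 1.01 over 4 genes. Slfn4 read 11.39 in control, 13.04 in heparin and 12.37 in peptide, a 3.13-fold difference under heparin. Slfn5 was 2.38-fold higher and Slfn2 1.71-fold. Ddx60, a helicase that supports RNA sensing, read 9.17, 10.67 and 10.72, which made it the largest difference among the 44 DEAD and DEAH box helicases (median 0.00). Apart from Ddx60 and Dhx58, 0 of these helicases were at least 1.5-fold higher.

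Cmpk2, a mitochondrial nucleotide kinase induced by interferon, read 10.78 in control, 12.68 in heparin and 12.34 in peptide. Znfx1, an RNA helicase at the mitochondrial surface, read 9.16, 10.87 and 10.38, and Rnf213, a giant ubiquitin ligase that coats intracellular bacteria, 10.38, 11.84 and 11.74. A second probe set of Rnf213 differed by 1.96. Sp110, a nuclear body protein, was 3.06-fold higher, and its 3 probe sets lay between 1.07 and 1.66. Rtp4, an interferon-induced chaperone of G protein-coupled receptors, was 2.92-fold higher. In each of these 5 genes the peptide value lay between those of control and heparin.

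PARP proteins attach ADP-ribose to other proteins, and 5 of the 12 measured members of that list were at least 1.5-fold higher, 4 of them at least 2-fold. Parp10 read 6.14 in control, 7.87 in heparin and 8.34 in peptide. Parp9 read 9.24 in control, 10.52 in heparin and 10.17 in peptide. Its binding partner Dtx3l, a ubiquitin ligase, read 10.16, 11.34 and 11.08, and Parp12 read 9.64, 10.74 and 10.53. Parp14 was 1.83-fold higher. The DNA repair enzyme Parp1 read 8.43 and 8.42 and Parp4 differed by 0.17, both named after their values were seen. Over the 12 members the median was 0.29, and the tankyrase Tnks2, at -0.62, was the 1 member at least 1.5-fold lower. Its other measured probe sets were at 0.00 and -0.09.

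Interferon-induced GTPases, which attack the membranes around intracellular parasites, had a median of 1.49 over 9 measured genes, with 6 at least 2-fold higher. The 1 at least 2-fold lower was Mx2, whose other probe set was higher by 2.46. Gbp2, a guanylate-binding protein, read 9.79 in control, 11.66 in heparin and 11.41 in peptide. Irgm2, an immunity-related GTPase, read 10.49, 11.90 and 11.61, and Irgm was 2.81-fold higher. Ifgga2l1, a further GTPase that stood outside the list, read 9.29, 11.07 and 10.80. Irgq, a family member named after its value was seen, had a difference of 0.00. Ifitm3, which blocks fusion of viruses with endosomes, read 11.03, 12.34 and 11.74 and so was higher in heparin than in peptide.

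**Figure D3:**
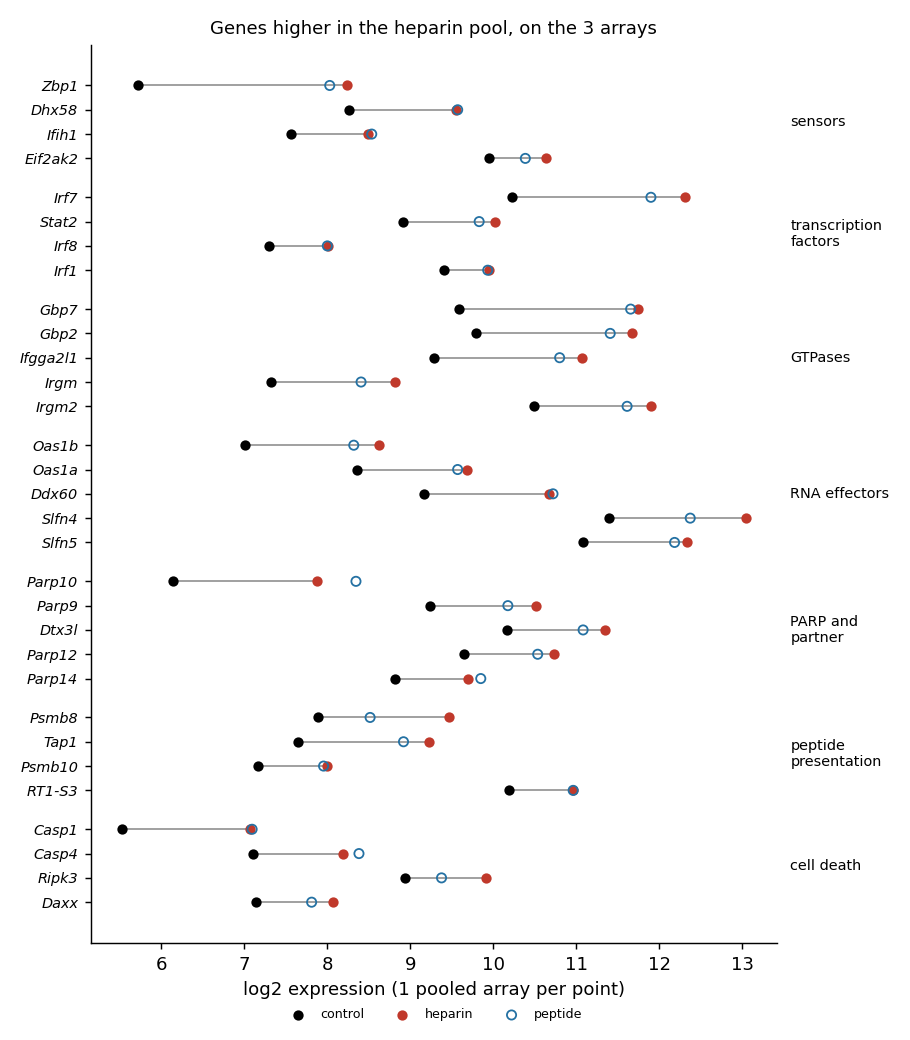
Log2 expression of genes higher in the heparin pool, on the control (black), heparin (red) and peptide (open blue) arrays, 1 pooled array per point, grouped by role. Every heparin point lies to the right of its control point, and most peptide points lie between control and heparin or close to heparin, with Parp10, Parp14 and Casp4 further right.

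Among genes of ubiquitin-like modifiers the median was only 0.02, because 15 of 21 measured members were within 1.5-fold of control. The members past it belonged to the ISG15 and FAT10 routes. Isg15, the ubiquitin-like protein itself, read 12.40 in control, 13.74 in heparin and 13.63 in peptide, and Ube2l6, its conjugating enzyme, 5.83, 7.10 and 6.94. Herc6, the ligase that attaches ISG15 in rodents, was 1.74-fold higher. Sumo2 and Ufm1, modifiers of other routes named after their values were seen, were at -0.16 and -0.23. TRIM proteins, a large ligase family with several antiviral members, had a median of 0.00 over 23 genes, and the 2 past 1.5-fold were Trim30d and Trim5, each 1.96-fold higher. Of 126 F-box, RING and HECT ligases 6 (4.76%) were at least 1.5-fold higher and 7 (5.56%) lower, with a median of 0.00. These shares are near the 3.04% and 3.37% of all genes.

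For peptide presentation, 6 of 16 measured processing genes were at least 1.5-fold higher and 0 lower, with a median of 0.33. The immunoproteasome subunit Psmb8 read 7.88 in control, 9.47 in heparin and 8.51 in peptide, and Psmb9 was 0.73 higher. The constitutive proteasome was level by contrast: all 39 measured subunits lay within 1.5-fold of control, between -0.31 and 0.31. Of 17 histocompatibility (RT1) genes, 13 were higher, 1 lower and 3 identical. Of these genes 4 (23.5%) were at least 1.5-fold higher, against 3.04% of all genes. RT1-S3, a class I gene, read 10.18, 10.95 and 10.96, with 4 measured probe sets, and RT1-N3 was 1.84-fold higher. RT1 genes are near-identical copies, so a probe set can read several of them. RT1-Da, a class II gene, was 0.47 higher.

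Of 30 apoptosis and necroptosis regulators, 4 (13.3%) were at least 1.5-fold higher and 1 (3.33%) lower, against 3.04% and 3.37% of all genes. The median was 0.00. Tnfsf10, the death ligand TRAIL, read 7.12 in control, 9.48 in heparin and 8.85 in peptide. Ripk3, the kinase of necroptosis, read 8.94 in control, 9.91 in heparin and 9.38 in peptide. Daxx, a nuclear chaperone and death adaptor, was 0.93 higher, and Casp8, the initiator caspase of death receptors, 0.62. The lower one was Bid, a substrate of Casp8, at -0.71. The other measured probe set of Casp8 differed by 0.04 and that of Bid by -0.09. Among 27 measured Toll-like receptor and NF-kB genes, 0 passed 1.5-fold in either direction, and the largest difference was Tlr2, the receptor for bacterial lipopeptides, at 0.51. The NF-kB subunit Nfkb1 and the adaptor Myd88, named after their values were seen, differed by 0.00 and 0.03.

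Some of the larger differences upward lay outside the families described so far. Lgals9, a galectin that binds Tim-3 on T cells, read 7.20 in control, 8.91 in heparin and 7.97 in peptide. Tent5a, a poly(A) polymerase, was 3.40-fold higher, Slamf9, a receptor of myeloid cells, 3.40-fold, and Tor3a, an ATPase of the endoplasmic reticulum, 3.30-fold. Ceacam1, an inhibitory adhesion receptor, read 8.77, 10.11 and 9.21, with its 3 probe sets between 0.86 and 1.47. Hsh2d, an adaptor of T cell activation, was 1.55 higher.

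Transcripts of infiltrating cells gave values for comparison, and their part in the results above was not tested. Sums of unlogged levels, here and below, take in all of a list's markers on the array, measured or not. Of 37 T cell and NK cell markers on the array, 5 were measured, and all 37 summed to 861 in control and 887 in heparin. Gata3, which also stands in the collecting duct list, read 8.94 on both arrays and weighs heavily in these sums. They are thus no reading of T cell content. Cd3e, a chain of the T cell receptor, read 4.76 on both arrays. Monocyte, macrophage and dendritic markers (25 of 33 measured) summed to 26441 in control, 31722 in heparin and 25672 in peptide, with a median of 0.11. Fcgr3a, an Fc receptor, was 1.06 higher, while the activation marker Cd83 was at -0.63 and the macrophage protein Aif1 at -0.52. Neutrophil markers (12 of 16 measured) summed to 17774 and 16729, and the granule proteins S100a8 and S100a9 differed by -0.13 and -0.08. Of 16 B cell and plasma cell markers 3 were measured, and 2 of these were higher: Jchain, which joins antibody chains, read 5.30, 6.72 and 5.14, and Ighl2 read 5.86, 7.16 and 4.20.

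Cytokine genes were mixed. Of 35 interleukins and receptors, 5 (14.3%) were at least 1.5-fold higher and 2 (5.71%) lower, against 3.04% and 3.37% of all genes. The median was 0.05. Il23a, a subunit of interleukin 23, read 6.66 in control, 5.17 in heparin and 8.08 in peptide, so the treated arrays lay on opposite sides of control. Il6 read 11.24, 11.87 and 11.59. Il10ra, the interleukin 10 receptor, was 0.82 higher and Osm, oncostatin M, 0.66. In the TNF superfamily 4 of 24 (16.7%) passed 1.5-fold upward and 2 (8.33%) downward. Among them were the decoy receptor Tnfrsf11b at 0.67 and Tnfrsf12a, the receptor of the ligand TWEAK, at -0.61. Suppressors of cytokine signalling stayed within 1.5-fold, from -0.35 to 0.11 over 9 genes.

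**Figure D4:**
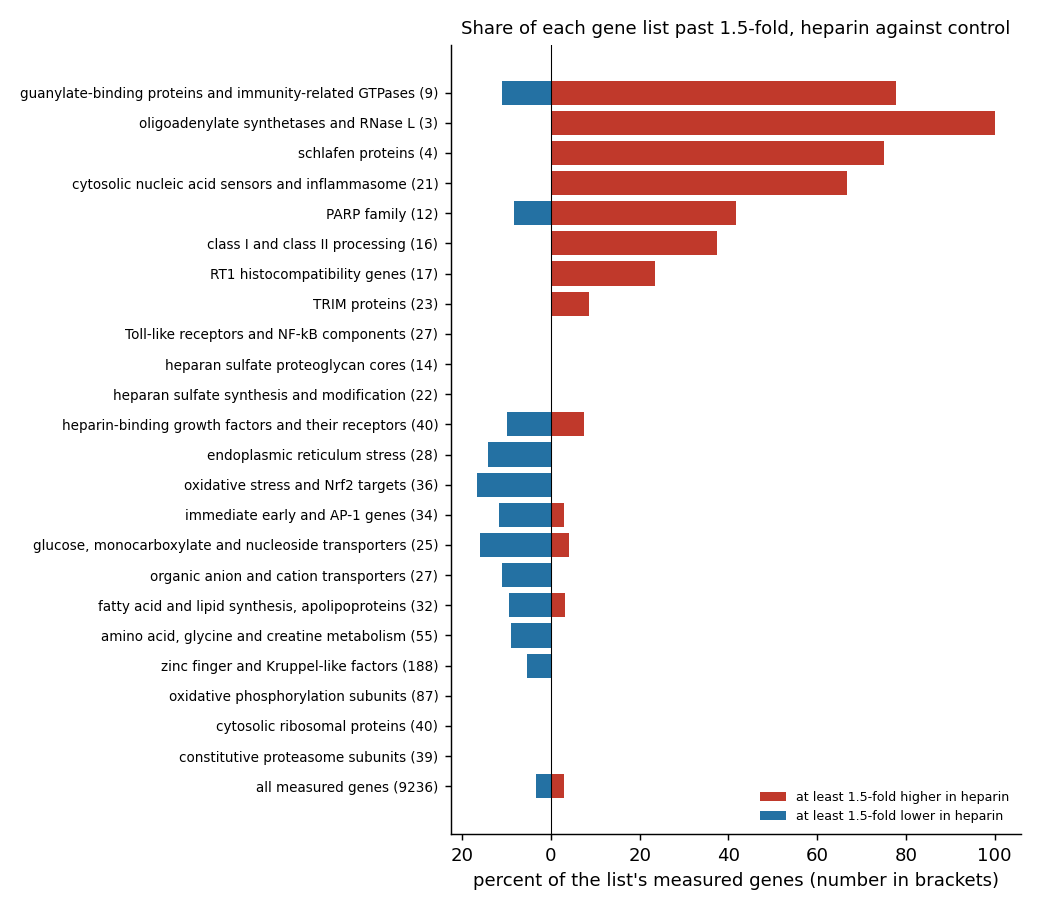
Bars give the percent of each list's measured genes (number in brackets) that were at least 1.5-fold higher (red, to the right) or lower (blue, to the left) in heparin than in control. Immune lists lie at the top with longer red than blue bars, except the Toll-like receptor and NF-kB list, which has none. Stress and carrier lists have longer blue than red bars. The bottom bar gives all 9236 genes at 3.04% and 3.37%.

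In the lists of stress programmes more genes passed 1.5-fold downward than upward, although most members lay within it. Over all genes, 44.2% were lower by any amount and 3.37% at least 1.5-fold lower. In the endoplasmic reticulum stress list, 2 of 28 measured genes were at least 2-fold lower and 4 at least 1.5-fold lower, 0 were higher by that much, and 21 were lower by any amount. The median was -0.22 in heparin and 0.01 in peptide. Hyou1, a chaperone of the endoplasmic reticulum, read 8.39 in control, 6.96 in heparin and 8.09 in peptide, 2.69-fold lower under heparin. Pdia4, a disulfide isomerase, read 8.96, 7.93 and 8.62, and Creld2, a secreted stress protein, 9.47, 8.71 and 8.87. Trib3, a pseudokinase of the ATF4 branch, was at -0.74 on its brightest probe set and at 0.00 on its other 2. Dnajb9, a cochaperone, read 11.32, 10.79 and 11.73. The most abundant chaperone of the group, Hspa5 (BiP), named after its value was seen, read 13.81, 13.71 and 13.80, and the stress factor Ddit3, named in the same way, 10.19 and 10.25. The differences were therefore not shared by all targets of the pathway.

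The promoters of this list carry a further motif. The endoplasmic reticulum stress element was searched as CCAAT, any 9 bases and CCACG on both strands and stood in 7 of the 23 members with a promoter (30.4%), against 14 (0.181%) of 7743 measured genes and 0.0765% of all promoters. The list is made of known targets of that response, so this share describes the list and not its difference under heparin. The windows are shown because these genes carry the same element and differed unlike each other, Hspa5 by -0.10 and Creld2 by -0.76. They are from the same GRCr8 promoter table, and in Creld2 the match is on the opposite strand.

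Hspa5, chr3:38452938-38453015 (+ strand): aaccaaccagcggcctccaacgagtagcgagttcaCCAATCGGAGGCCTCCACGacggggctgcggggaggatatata
Creld2, chr7:121789204-121789292 (+ strand): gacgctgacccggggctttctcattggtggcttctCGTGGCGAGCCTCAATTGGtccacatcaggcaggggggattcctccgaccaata

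The Nrf2 list held 3 of 36 measured genes at least 2-fold lower and 6 at least 1.5-fold lower, with 0 higher by that much. Its median was -0.07 in heparin and 0.03 in peptide. Hmox1, the haem-degrading enzyme, read 12.91 in control, 11.74 in heparin and 12.53 in peptide. Gsr, glutathione reductase, read 8.31, 7.30 and 8.69, and Ephx1, an epoxide hydrolase, 11.54, 10.38 and 11.25. Srxn1, which repairs oxidised peroxiredoxins, was at -0.67, and its other measured probe set at -1.83. Sod3, the extracellular superoxide dismutase, was at -0.71. Nqo1 and Gclc, textbook targets of Nrf2 named after their values were seen, each differed by only -0.07. The antioxidant response element stood in 6 of 32 promoters of the list (18.8%), near the 12.7% of all measured genes.

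Immediate early genes were lower in 22 of 34 cases and higher in 7, against 44.2% and 25.8% of all genes. Their median was -0.17 in heparin and 0.00 in peptide. Arc, the activity-regulated cytoskeletal gene, read 5.91 in control, 4.36 in heparin and 5.79 in peptide. Fosb, a subunit of AP-1, read 10.76, 9.40 and 10.52, 2.56-fold lower under heparin. These 2 were the members at least 2-fold lower, and 4 in all were at least 1.5-fold lower, with Maff at -0.62 and Fosl1 at -0.62. Junb, at -0.57, did not reach 1.5-fold. Myc read 11.53, 11.04 and 11.67. Rgs2, a regulator of G protein signals, was the member at least 1.5-fold higher, at 9.62, 10.27 and 9.60. Egr1, named after its value was seen, read 13.06 and 13.13, so the members did not differ as a block. The AP-1 motif was found in 0 of 26 promoters of this list.

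Among tubular injury markers, 6 of 25 (24%) were at least 1.5-fold lower and 1 (4%) was higher, against 3.37% and 3.04% of all genes. The median was -0.20 in heparin and -0.08 in peptide. Lcn2, the lipocalin of injured tubules and neutrophils, read 10.26 in control, 9.23 in heparin and 9.08 in peptide. Havcr1, kidney injury molecule 1, read 11.78, 11.05 and 10.86, and Gdf15, a stress cytokine, 7.60, 6.84 and 7.72. Both Lcn2 and Havcr1 were lower on each treated array, whereas Gdf15 was lower in heparin alone. Krt8, a keratin of injured epithelium, was at -0.57, and Spp1, osteopontin, at -0.08.

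**Figure D5:**
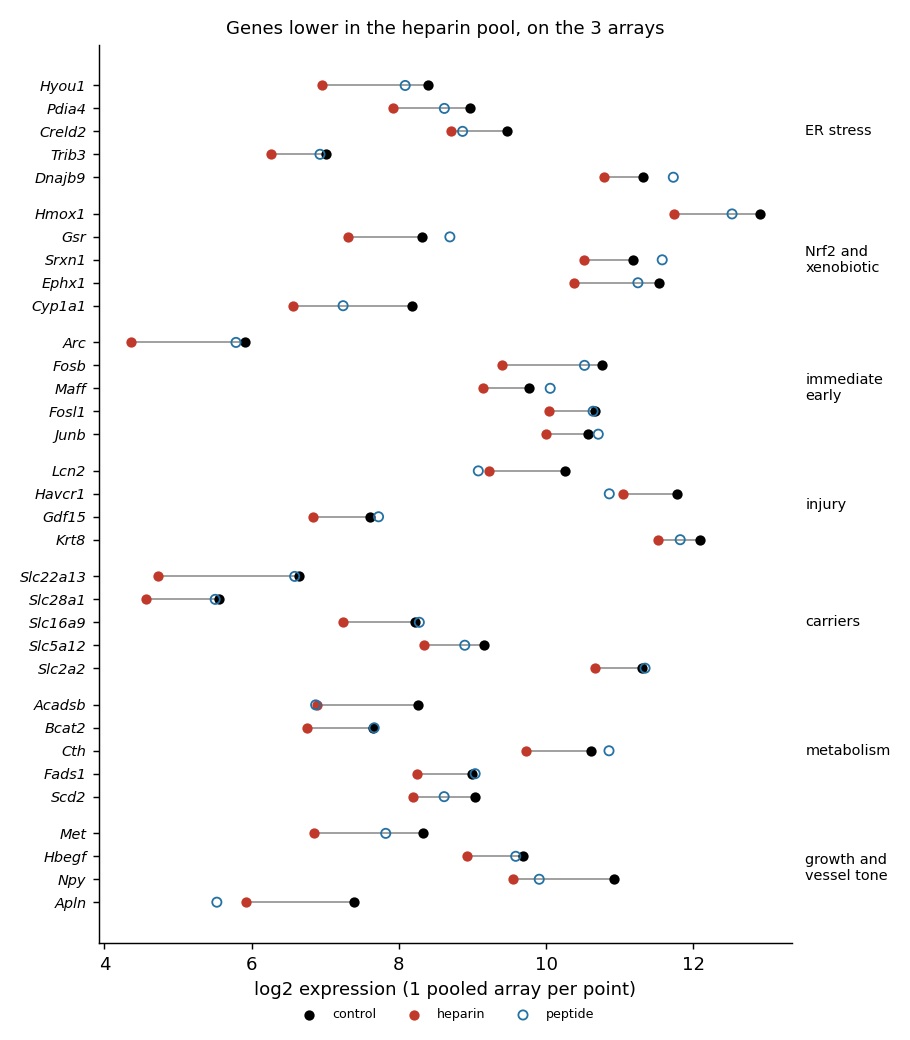
Log2 expression of genes lower in the heparin pool, on the control (black), heparin (red) and peptide (open blue) arrays, 1 pooled array per point, grouped by role. Every heparin point lies to the left of its control point, and most peptide points lie closer to control, but those of Acadsb, Lcn2, Havcr1, Apln, Creld2, Npy, Cyp1a1 and Scd2 lie closer to heparin.

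Carriers of the proximal tubule and other segments held few large differences, most of them downward. Over all genes, 3.37% were at least 1.5-fold lower and 3.04% higher. By contrast, 3 of 29 potassium channels were at least 1.5-fold higher and 2 lower. Of 27 organic anion and cation transporters, 3 (11.1%) were at least 1.5-fold lower and 0 higher. Slc22a13, a carrier of urate and nicotinate, read 6.64 in control, 4.73 in heparin and 6.59 in peptide. Slc22a4, a carrier of ergothioneine, was at -0.89, and Slco1a6, an organic anion carrier, at -0.87. The main organic anion carriers Slc22a6 and Slc22a8 differed by 0.33 and 0.03. In the list of glucose, monocarboxylate and nucleoside carriers, 4 of 25 (16%) were at least 1.5-fold lower and 1 (4%) was higher. Slc28a1, which takes up pyrimidine nucleosides, read 5.56, 4.57 and 5.51, whereas Slc28a2, which takes up purine nucleosides, read 9.10, 10.74 and 10.17. These relatives thus lay on opposite sides of control. Slc5a12, a lactate carrier, was at -0.82 with a second probe set at -0.49, and Slc2a2, the basolateral glucose carrier, read 11.31, 10.66 and 11.34.

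Other carriers followed the same pattern of single genes. Slc16a9, of the monocarboxylate carrier family, read 8.22 in control, 7.24 in heparin and 8.28 in peptide. Slc4a4, the basolateral bicarbonate carrier, was at -0.61, and its second probe set at -0.59. Slc7a12, an amino acid carrier, read 10.20, 9.19 and 8.96. Trpm7, a magnesium-permeable channel, was at -0.93 and Slc8a1, the sodium-calcium exchanger of the connecting tubule, at -0.88. Slc14a2, a urea carrier of the inner medulla, was higher, at 7.99, 9.03 and 8.21, but the other 4 of its 5 probe sets were below the array median. Abcb1a, a drug efflux pump, was at -0.89, and it was the single member of 23 ABC transporters past 1.5-fold. Vacuolar ATPase subunits stayed between -0.38 and 0.37 over 21 genes.

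These carriers stand beside segment markers that moved unequally. Proximal tubule markers (27 of 27 measured) had a median of 0.07, and their summed unlogged level was 196573 in control and 199687 in heparin. Distal convoluted and connecting tubule markers (9 of 14 measured) had a median of -0.40, with 0 of 9 higher, and summed to 22526, 15982 and 26545. Klk1b3, a kallikrein of that segment, read 11.18 in control, 9.71 in heparin and 12.27 in peptide. Collecting duct markers (17 of 21) had a median of 0.00. The part of segment content in the carrier values was not tested.

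Of the metabolic lists, some had a median below 0, while those of cytochrome P450 enzymes, glycolysis, cholesterol synthesis and nucleotide metabolism had a median of 0.00. Of 42 fatty acid oxidation and peroxisome genes, 33 were lower and 3 higher, with a median of -0.19, and 3 passed 1.5-fold, where 44.2% of all genes were lower. Lipid synthesis and apolipoprotein genes had a median of -0.21 over 32 genes, with 21 lower and 6 higher. Scd2, a fatty acid desaturase, read 9.04 in control, 8.20 in heparin and 8.62 in peptide, and Fads1, a further desaturase, 8.25 in heparin and 9.04 in peptide, with a difference from control of -0.75 under heparin. Plin2, the coat protein of lipid droplets, read 12.85, 11.74 and 12.54, but its other probe set differed by 0.05. Fabp5, a fatty acid carrier of macrophages and epithelium, was the 1 member at least 1.5-fold higher, at 0.63.

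Amino acid metabolism had 5 of 55 genes (9.09%) at least 1.5-fold lower and 0 higher, with a median of -0.07. Over all genes, 3.37% were lower by that much. Acadsb, which oxidises short branched acyl chains, read 8.26 in control, 6.90 in heparin and 6.87 in peptide. Bcat2, the mitochondrial branched-chain transaminase, read 7.64, 6.76 and 7.67, and Cth, which makes cysteine, 10.61, 9.73 and 10.86. Gldc, the glycine decarboxylase, was at -0.84, and Bhmt, which remethylates homocysteine, at -0.60. Of these genes Acadsb alone was as low in peptide as in heparin. Of 24 citric acid cycle genes, 16 were lower and 4 higher, with a median of -0.08, and 0 passed 1.5-fold. Of 87 oxidative phosphorylation subunits, 47 were lower and 17 higher, with a median of -0.03, and 0 passed 1.5-fold. These counts stand beside 44.2% of all genes lower and 25.8% higher by any amount. Of 21 glycolysis genes 1 passed it, Pfkfb4 at -0.76.

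Enzymes of foreign compounds and of signalling lipids held single large differences. Cyp1a1, the aryl hydrocarbon receptor target, read 8.18 in control, 6.57 in heparin and 7.24 in peptide, 3.05-fold lower under heparin. Ugt2b7, a glucuronosyltransferase, read 7.22, 5.98 and 7.31, and Inmt, an indole methyltransferase, 8.13, 6.78 and 9.06. Ptgds, a prostaglandin D synthase, read 9.65, 8.25 and 9.80. Ptger3, a receptor of prostaglandin E, was higher by 0.63 and stood at 9.56, 10.19 and 9.02. Ppat, the first enzyme of purine synthesis, read 7.63, 6.13 and 7.32.

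Genes of heparan sulfate, the cell-surface relative of heparin, differed little. Of 14 measured core proteins and 22 measured enzymes of synthesis and modification, 0 were at least 1.5-fold higher or lower, and both medians were 0.00. The largest differences were Gpc1, a glypican, at 0.56 and B3gat3, an enzyme of the linker sugar, at -0.48. Sdc1, syndecan 1, read 8.52 on both arrays. Other small proteoglycans and hyaluronan genes had a median of 0.28 over 8 genes, with Vcan, versican, at 0.68. They stand beside fibroblast, mesangial and smooth muscle markers (15 of 21 measured), which had a median of 0.24 and summed to 12306 in control, 16710 in heparin and 12546 in peptide, and whose part was not tested.

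Heparin-binding growth factors and their receptors split, with 3 of 40 at least 1.5-fold higher (7.5%) and 4 lower (10%), against 3.04% and 3.37% of all genes, and a median of 0.00. Met, the receptor of hepatocyte growth factor, read 8.33 in control, 6.85 in heparin and 7.82 in peptide, 2.79-fold lower under heparin. Hbegf, a ligand of the EGF receptor, read 9.69, 8.93 and 9.59, and Mdk, midkine, 7.29, 6.50 and 6.42. Nrg1, neuregulin, was at -0.67. On the higher side, Angpt2, an antagonist of the endothelial receptor Tie2, read 7.17, 7.91 and 6.64, and Fgf9 read 9.98, 10.70 and 10.23. In the TGF-beta list the activin subunits Inhbb and Inhba were 0.89 and 0.75 higher, and Smad7, the inhibitor of that pathway, was at -0.58. The other measured probe sets of Fgf9 and Inhba differed by 0.21 and 0.06.

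Of 17 measured genes of vasoactive peptides, nitric oxide and their receptors, 8 were lower, 6 higher and 3 identical, with a median of 0.00. Over all genes, 44.2% were lower and 25.8% higher by any amount. Of these 17, 3 were lower by 2-fold or more and 1 was higher by as much, against 0.747% and 1.06% of all genes. The higher one was P2ry14, the receptor for UDP-glucose, at 6.42 in control, 7.52 in heparin and 7.41 in peptide. Npy, neuropeptide Y, read 10.92 in control, 9.55 in heparin and 9.91 in peptide. Apln, the ligand of the apelin receptor, read 7.39, 5.92 and 5.53. Adra2b, an adrenergic receptor, was at -1.15 on its brightest probe set, while its others were at -0.62 and 0.26, so its direction is uncertain. Gucy1a1, a subunit of the nitric oxide receptor, was at 0.67. Endothelial markers (17 of 20 measured) had a median of 0.00 and summed to 10902 and 12175.

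Of 188 zinc finger and Kruppel-like factors, 92 were lower and 25 higher by any amount, with a median of 0.00. Over all genes, 44.2% were lower and 25.8% higher. At 1.5-fold, 10 of the factors were lower (5.32%) and 0 higher, against 3.37% and 3.04% of all genes. Of 29 nuclear receptors and coregulators, 11 were higher and 10 lower. Zfp511 was at -0.93, Zbtb1 at -0.86 and Zfp518a at -0.76. Rora, a nuclear receptor that drives the clock gene Bmal1, read 8.84 in control and 7.69 in heparin, and its peptide value lay 0.17 above control. Clock outputs went both ways, with Hlf at -0.61 and Dbp at 0.50. Ncoa7, a coregulator with an interferon-induced isoform, was 0.96 higher, and Ncoa4, the receptor for ferritin turnover, was at -0.76. Mdm2, the ligase that degrades p53, read 10.64, 9.90 and 10.70, and Hes1, a Notch target, was at -0.74.

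Several large families gave almost no difference. All 40 cytosolic ribosomal proteins lay between -0.22 and 0.32, with a median of 0.07. Of 73 mitochondrial ribosomal proteins, 46 were lower, against 44.2% of all genes, with a median of -0.05. Mrps18c was at -0.99, and its other measured probe set at -0.18. Of 85 translation factors and tRNA synthetases, 2 were at least 1.5-fold higher, Eif2ak2 and the interferon-induced Wars1 (0.68), and 2 lower, with Hars1 at -0.79. The other measured probe set of Wars1 was at 0.00. Of 89 splicing factors 1 passed 1.5-fold, of 45 lysosomal and autophagy genes 0, of 30 collagens and their processing enzymes 0, and of 81 heat shock proteins 2. Vesicle trafficking genes had 3 of 187 in each direction past 1.5-fold.

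A few large differences lay outside the lists of kidney and immune genes. Krt15, a keratin of stratified epithelium, read 4.60 in control, 6.19 in heparin and 4.94 in peptide, and Anxa8, an annexin, 5.18, 6.75 and 5.91. Rasa4, a Ras GTPase-activating protein, was at 7.57 on both treated arrays and at 5.99 in control. Of 26 skeletal muscle markers 4 were measured, and the list summed to 8983 in control, 23764 in heparin and 5112 in peptide, nearly all of it from Myh1. Liver markers (5 of 17 measured) summed to 1638, 1028 and 2161, with a median of 0.00. Most of that sum came from Fga, a fibrinogen chain, at 10.41, 9.41 and 10.82, whereas Cyp2c11, a cytochrome P450 of male rat liver, read 4.58, 6.73 and 7.48. Of 17 adrenal and testis markers 0 were measured. Whether surrounding tissue entered a pool was not tested.

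How firmly a value can be read also depends on its probe sets. Of the 98 genes at least 2-fold higher, 16 had several measured probe sets, and in 14 of these all pointed the same way. Of the 69 at least 2-fold lower, 9 had several, and in 4 all pointed the same way. In 0 of these 9 did every probe set reach 2-fold. Calls were made at all levels, with 9 higher and 10 lower among genes of mean level 4 to 6 and 7 and 3 among those of 12 to 16. For beta-actin the 3' probe set exceeded the 5' one by 2.33 in control and 2.95 in heparin, and for GAPDH by 0.36 and 0.32. A larger gap is a sign of lower RNA integrity. The part of RNA integrity in the lower values was not tested.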

How the data were processed

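Total RNA of 3 of 7 kidneys per group was pooled, labelled from 6 µg and hybridised to 1 Affymetrix rat array per group. The deposited values are log2 expression per probe set, made by the authors with GCRMA. The submitters' processing notes name GCRMA with no version, and its parameters were not given in the sources used here. Many genes have exactly the same value on several arrays, so a difference of 0 does not show equal abundance. Medians were 4.14 (control), 4.16 (heparin) and 4.14 (peptide). The number of arrays limits the precision.

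Values were used as deposited (Python 3.11.15, pandas 2.3.3, numpy 2.4.6). Of 31099 probe sets, 20832 had 1 symbol in the platform annotation, 436 several and 9831 none. Genes past 1.5-fold and 2-fold were counted over all genes and in 111 gene lists. Members and lists were chosen with earlier results of these data known. Named genes were the 40 largest differences each way, each list's members past 2-fold and its 6 largest, up to 15 bounds each way, and kidney and blood markers. Genes with an opposite probe set or a locus number as name were left out of the 40, and others are marked. The 3 genes higher and 1 lower with only a bound are not described here. The counting was tested on simulated data. Alternatives were other scalings, filters, probe set choices, 32 added to unlogged values, and the peptide array as reference.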

Additional observations from a re-analysis of the deposited data

Results flagged for a closer look

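Signal was also present in probe sets that the comparison does not use, because they carry no gene symbol or several. Of 3229 such probe sets at or above the median on both arrays, 77 (2.38%) were at least 2-fold higher in heparin than in control and 28 (0.867%) were at least 2-fold lower. Their differences ran from -2.27 to 4.13. They are not named here, and the genes they read were not analysed.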

How the results depend on the processing

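No paired analysis was possible because each group is 1 array. Over all 9 alternatives, the count of genes higher by 2-fold or more ran from 74 to 122 and of those lower by as much from 40 to 77. Counts stayed within 1.5 times the first values (98, 69, 281 and 311) except after 32 was added to the unlogged values, which shrinks differences of dim genes: 40 genes were then lower by 2-fold and 200 by 1.5-fold. The split at 1.5-fold was 219 higher and 200 lower in that setting and 328 and 257 after quantile normalization, which moved the median of all genes by 0.03. Of the 98 and 69 genes, 97 and 60 remained at least 2-fold apart after quantile normalization and 81 and 51 when a gene's probe sets were averaged. That average put Mx2 at 0.65, reversing it.

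Against the peptide array instead of control, these genes changed sign: Acadsb 0.024, Apln 0.39, Casp1 -0.026, Casp4 -0.19, Cyp27a1 -0.12, Cyp2c11 -0.75, Ddx60 -0.050, Dhx58 -0.021, Fcgr3a -0.28, Gbp4 -0.16, Hsh2d -0.0080, Lcn2 0.15, Parp10 -0.47, Poteml2 -0.22, Samhd1 -0.20 and Slc7a12 0.23; the cause was not tested. Medians of sparse marker lists depended on the filter: without it the platelet, B cell and skeletal muscle lists were at 0.00. Signal over background limits genes near the array median, and the single array per group limits every value.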
